A study of Homo sapiens with 4 samples.

Results

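The HOX genes of the 4 human clusters, HOXA on chromosome 7, HOXB on chromosome 17, HOXC on chromosome 12 and HOXD on chromosome 2, were followed together with the noncoding transcripts named within the clusters. Members were all rows of the deposited count table whose symbol begins with HOXA, HOXB, HOXC or HOXD, together with HOTAIR, HOTAIRM1 and HOTTIP. This gave 56 of 59385 rows, of which 39 were coding, 16 were antisense or other noncoding rows, and 1 was the readthrough HOXA10-HOXA9. The HOXA cluster held 18 rows, HOXB 14, HOXC 14 and HOXD 10. RNA was sequenced from C4-2 cells, a castration-resistant subline of the human prostate cancer line LNCaP with an active androgen receptor. Cells had received either a control small interfering RNA (siCTRL, 2 libraries) or a small interfering RNA against EZH2 (siEZH2, 2 libraries). All libraries shared the line and the serum-supplemented medium, and the sources used here give no dose, time after transfection or sequence for either small interfering RNA. The comparison asks how the transcriptome differs when EZH2, the methyltransferase of Polycomb repressive complex 2, is depleted. A single cell line was used, and nothing in the labels ties replicates to separate cultures, so p-values reflect only how far these samples differ, which may be technical.

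HOX genes encode homeodomain transcription factors that give cells their position along the body axis, and their order within a cluster follows the order in which they are used from head to tail. Polycomb complexes keep HOX genes silent where they are not needed, and Trithorax proteins oppose them. Posterior members, those with high paralogue numbers, pattern the urogenital tract, and HOXB13 remains active in the adult prostate epithelium, where its protein works beside the androgen receptor. Several clusters also produce long noncoding RNAs from the opposite strand. Among them, HOTAIR has been described as a partner of Polycomb repressive complex 2, and HOTTIP as a partner of the WDR5 and MLL proteins that sustain posterior HOXA genes.

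The clusters also encode the miR-196 family, small RNAs that target HOX mRNAs, and one of its precursors lies opposite the HOX row with most counts. Their mature sequences from RefSeq (GRCh38.p14) are shown with the seed, bases 2 to 8, in capitals, because the seed is the same in both and is the part that pairs with target mRNAs. The first lies at chr7:27169528-27169549 on the minus strand, within the span of HOXA10-AS, and the second at chr12:53991762-53991783 on the plus strand, within the span of HOXC6.
hsa-miR-196b-5p: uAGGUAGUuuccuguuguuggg
hsa-miR-196a-5p: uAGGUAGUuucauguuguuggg
The third sequence is the RefSeq promoter window of HOXA11, 300 bases around its start (chr7:27185183-27185482, minus strand), printed because HOXA11 and HOXA11-AS start head to head here and both rows carried counts. CG dinucleotides, which read the same on both strands, are in capitals.
HOXA11 promoter: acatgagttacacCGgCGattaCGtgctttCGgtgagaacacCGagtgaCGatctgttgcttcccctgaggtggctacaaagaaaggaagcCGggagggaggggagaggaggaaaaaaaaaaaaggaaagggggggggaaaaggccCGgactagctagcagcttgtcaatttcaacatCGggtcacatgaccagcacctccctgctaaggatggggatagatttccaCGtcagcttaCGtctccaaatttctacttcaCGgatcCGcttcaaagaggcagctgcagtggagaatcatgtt
The windows of HOXA11 and HOXA11-AS shared 275 bases. The HOXA11 window held 13 CG dinucleotides. Of 38 RefSeq promoter windows belonging to 30 members, 27 (71.1%) held at least 10, against 56.4% of all 35116 windows, and the medians were 15 and 14. These counts describe the sequence alone.

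Library totals ran from 6162123 to 6867542 counts. The row of the targeted gene, EZH2, was not lower, with 39 and 59 counts under the siCTRL label and 60 and 131 under the siEZH2 label, which gave a log2 fold change of 0.51 (edgeR quasi-likelihood test, adjusted p = 0.621 after Benjamini-Hochberg). Every direction below is therefore that of libraries labelled siEZH2 against libraries labelled siCTRL. Libraries came from a stranded kit, and no source used here gives the strand setting of the counting. MT-ND6, the mitochondrial protein gene on the opposite strand to the other 12, held 69.9% to 80.5% of the counts of all 13. Reads from a HOX gene and from its antisense partner therefore cannot be told apart by row name. Each value, that of EZH2 above included, is given as counts under a row, not as the level of the named RNA. The EZH2 row thus does not settle whether EZH2 RNA was depleted. Of the 8 luminal markers other than HOXB13, each had at least 85 counts in every library, and their summed level was 4667, 3471, 3298 and 1500 CPM (counts divided by the library size after TMM scaling) in siCTRL 1, siCTRL 2, siEZH2 1 and siEZH2 2. The 6 markers of leukocytes, endothelium, fibroblasts and basal epithelium summed to 19.99, 29.8, 36.6 and 31.8 CPM, and none was at 0 in any library.

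The HOX rows together held 4762, 4525, 4321 and 4654 counts in siCTRL 1, siCTRL 2, siEZH2 1 and siEZH2 2. That was 0.0693%, 0.0664%, 0.0679% and 0.0755% of each library, nearly level before scaling. Most of these counts lay under a single row. HOXA10-AS took 64.2%, 58.6%, 59.7% and 53.0% of all HOX counts in the same order (exact Clopper-Pearson 95% intervals 62.8% to 65.5%, 57.2% to 60.1%, 58.3% to 61.2% and 51.6% to 54.5%). Such intervals cover counting error only, and 60.4% of the 192 member values above 0 were even, so a single count may not be an independent read. The other 32 member values were 0.

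**Figure D1:**
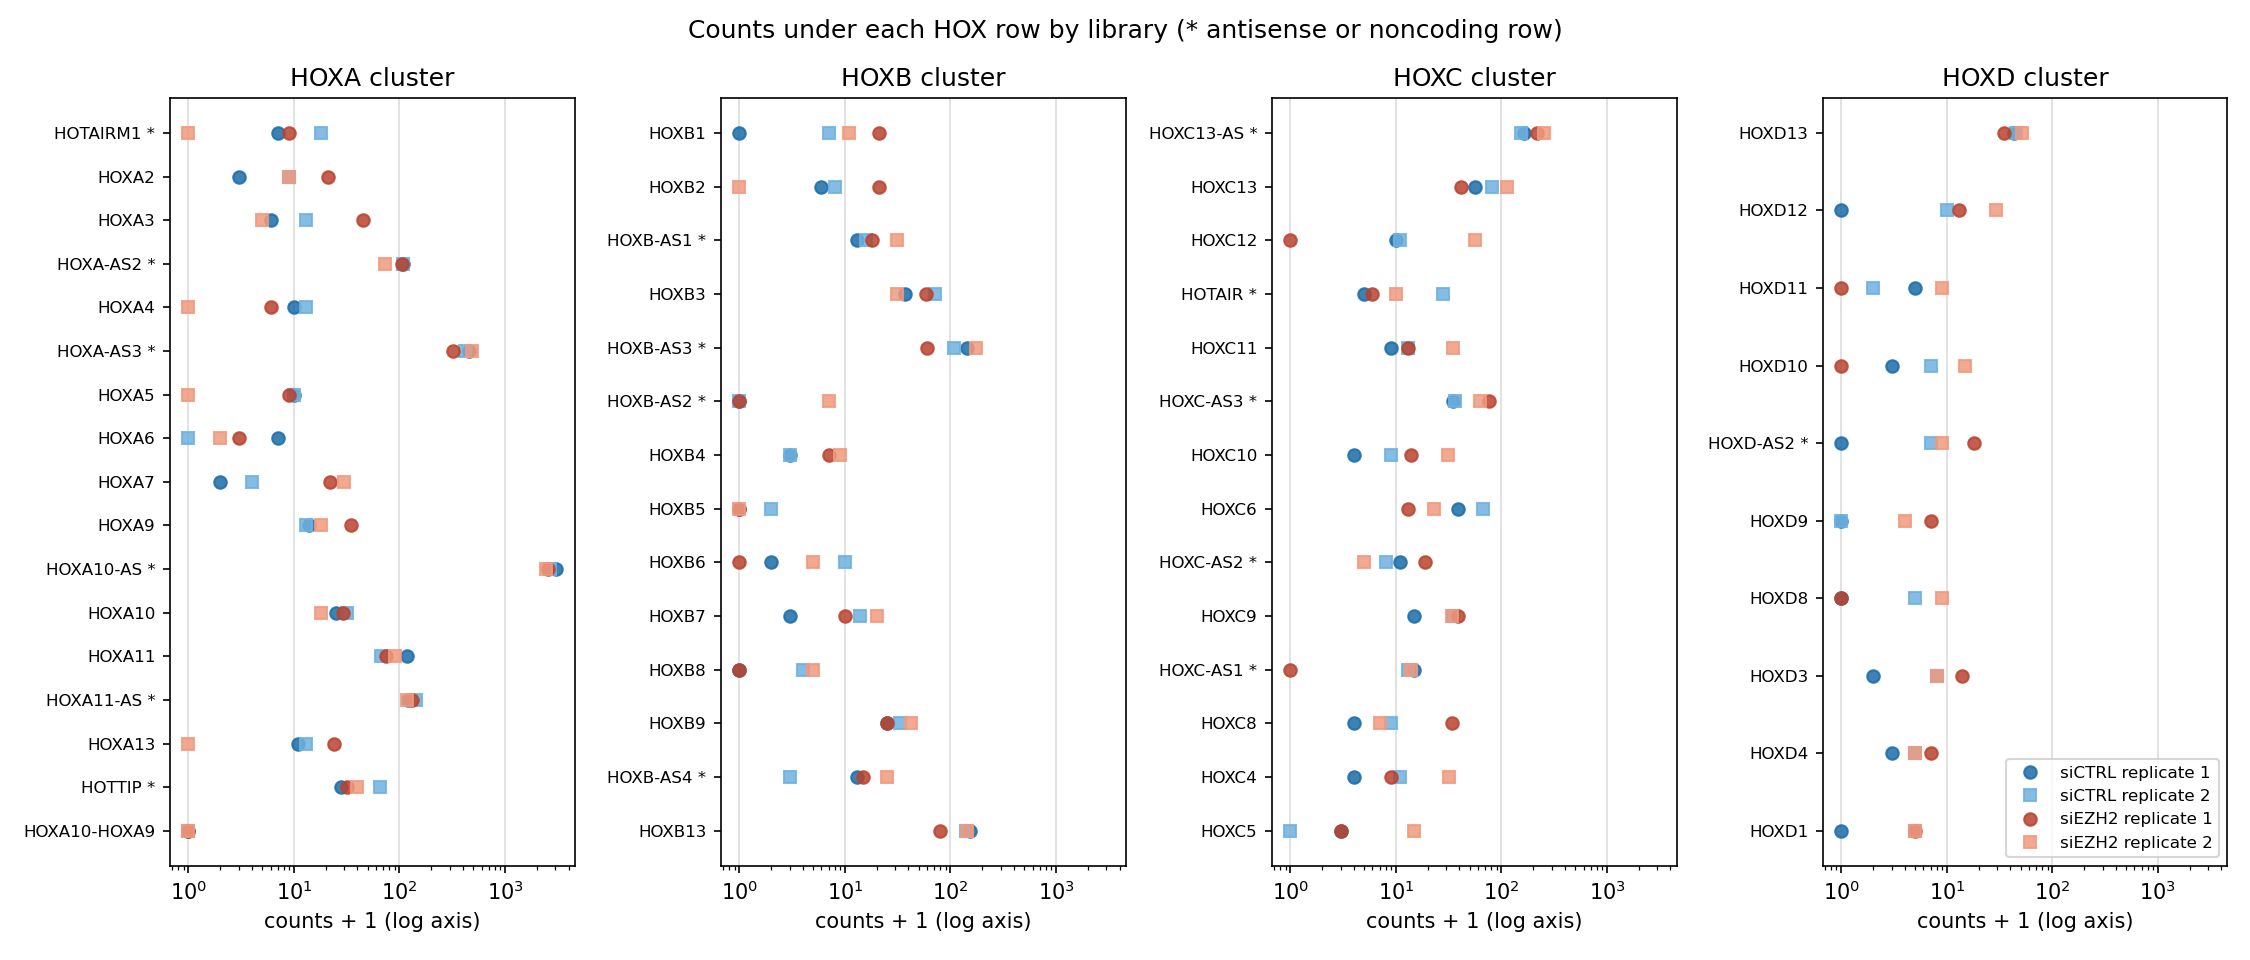
Counts + 1 on a log axis for 55 of the 56 HOX rows, 1 panel per cluster with rows in chromosome order, and 1 point per library (blue siCTRL, red siEZH2; circle replicate 1, square replicate 2). HOXA10-AS stands alone above 1000 counts in all 4 libraries, and HOXA7 (1 and 3 against 21 and 29) and HOXC6 (38 and 66 against 12 and 22) are among the rows whose groups do not overlap.

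Of the 56 rows, 29 passed the low-count filter and were tested, 18 coding and 11 antisense or noncoding. None was called higher or lower by edgeR at an adjusted p under 0.05, where 0% of all 24431 tested rows were called, and adjusted p over the tested members ran from 0.2 to 0.929. At an unadjusted p under 0.05 there were 2 members, HOXA7 in the higher and HOXC6 in the lower direction, against 16.4% of all tested rows (8.53% higher, 7.91% lower), so fewer members than the background share passed. DESeq2 and limma-voom also called 0 members, while over all rows they called 10 higher (0.2% of rows with an adjusted p) and 858 lower (17.1%), and 11 higher (0.045%) and 334 lower (1.37%). With the replicate number as a block, edgeR called 0 members, against 248 rows higher (1.02%) and 1079 lower (4.42%) over the table. DESeq2 gave an adjusted p for only 8 of the members. Two-sided exact permutation of 4 libraries has a smallest p of 0.333 for any single row, so none is reported. In bulk RNA, fewer cells carrying a transcript and less of it per cell cannot be told apart.

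HOXA10-AS, a noncoding row that runs opposite HOXA9 and HOXA10 (chr7:27168619-27171915 on GRCh38, plus strand), had 3055 and 2653 counts in siCTRL and 2581 and 2468 in siEZH2. All siEZH2 values lay below all siCTRL values, by a margin smaller than the gap between the siCTRL libraries. Per kb of row length these were 1847, 1604, 1560 and 1492 counts, and by mean count the row ranked 371 of 59385. After scaling it stood at 526 ± 155 and 337 ± 44.9 CPM (SD, n = 2 each), or -0.64 ± 0.43 as log2 fold change and standard error (edgeR adjusted p = 0.437). When library sizes were scaled only on well-covered rows, those that reached 200 counts in 2 or more libraries, the value turned to 0.09. Its exons share 422 bases with HOXA9, 608 with HOXA10 and all 84 bases of MIR196B on the other strand. The MIR196B row, the precursor of the first sequence above, was at 0 in all 4 libraries.

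Counts under the coding rows that HOXA10-AS faces were low. HOXA10, a posterior factor of the uterus and limb, had 24 and 31 counts in siCTRL and 28 and 17 in siEZH2. HOXA9, known for its role in blood progenitors and leukaemia, had 13 and 12 against 34 and 17. Per kb, HOXA10-AS held 192 to 327 times the counts of HOXA10 and 139 to 431 times those of HOXA9. The log2 fold changes were -0.69 for HOXA10 (edgeR adjusted p = 0.651) and 0.60 for HOXA9 (adjusted p = 0.755), and the value of HOXA9 was -0.06 without siEZH2 replicate 1.

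The second HOXA antisense row by counts was HOXA-AS3, which runs from HOXA4 to HOXA7 (chr7:27129977-27155928, plus strand). It had 453 and 416 counts in siCTRL and 324 and 486 in siEZH2, so the groups overlapped before scaling, with siEZH2 replicate 2 the highest. It stood at 79.8 ± 20.5 and 53.2 ± 9.77 CPM (SD, n = 2 each), or -0.58 ± 0.40 as log2 fold change and standard error (edgeR adjusted p = 0.456). HOXA-AS3 shares 1507 exonic bases with HOXA7, the longest overlap of any pair here, 505 with HOXA6, 288 with HOXA3 and 31 with HOXA4.

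HOXA7 (chr7:27153716-27157936, minus strand), a trunk and blood lineage homeobox gene, had 1 and 3 counts in siCTRL and 21 and 29 in siEZH2. Its groups stood apart by more than the spread within either of them, at 0.340 ± 0.186 and 3.29 ± 0.414 CPM (SD, n = 2 each). The pooled ratio was 9.26, with a counting interval of 3.40 to 35.3 (exact, 95%), which leaves out variation between libraries. The row passed the low-count filter through its siEZH2 counts. As log2 fold change and standard error the fit gave 3.17 ± 1.25 and did not pass (edgeR adjusted p = 0.248), and it lay between 2.76 and 3.87 in all 11 alternatives that tested the row. HOXA-AS3 had 183 and 56.0 times its counts per kb in siCTRL and 6.23 and 6.77 times in siEZH2. Background was read from the rows of 414 olfactory receptor genes, which are mostly silent outside the nose, and held 1.30, 3.12, 4.61 and 6.23 counts per kb in siCTRL 1, siCTRL 2, siEZH2 1 and siEZH2 2. HOXA7 stood at 0.319, 0.399, 1.89 and 1.93 times that background, below it in siCTRL and above it in siEZH2.

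Raw counts of the remaining HOXA noncoding rows overlapped between the groups or lay within 1 count of doing so. HOXA-AS2, which lies over HOXA3 and HOXA4, had 107 and 106 counts in siCTRL and 105 and 72 in siEZH2, and HOXA11-AS had 119 and 142 against 131 and 116. HOTTIP, at the posterior end beside HOXA13, had 27 and 65 against 31 and 39. In these rows siEZH2 replicate 2 was lowest for HOXA-AS2 and HOXA11-AS, and siCTRL replicate 1 was lowest for HOTTIP. Log2 fold changes were -0.70, -0.51 and -0.78, with edgeR adjusted p from 0.44 to 0.547. HOTAIRM1, at the anterior end, was not tested and had 6 and 17 counts against 8 and 0.

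All 5 tested HOXA noncoding rows thus had negative values, with a median of -0.64. After TMM scaling, both siEZH2 levels lay below both siCTRL levels in all 5, as in 22.9% of all tested rows. HOXA10-AS, HOXA-AS3 and HOXA11-AS had means of 100 counts or more. Over all tested rows that class had 11.0% positive values and a median of -0.68, so negative values were the rule there. Scaling on well-covered rows turned HOXA10-AS, HOXA-AS3 and HOXA11-AS positive, at 0.09, 0.17 and 0.18, and left HOXA-AS2 and HOTTIP negative. Summed over the 6 rows, raw counts were 3767, 3399, 3180 and 3181 in siCTRL 1, siCTRL 2, siEZH2 1 and siEZH2 2, and scaled levels 784, 533, 454 and 393 CPM. The siCTRL libraries differed from each other by more than the lower of them differed from either siEZH2 library.

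Among HOXA coding rows, HOXA11, a gene of the uterus, kidney and limb, had the most counts, with 116 and 66 in siCTRL and 73 and 89 in siEZH2. The siCTRL libraries enclosed both siEZH2 values. Its level was 17.3 ± 9.75 and 10.7 ± 0.408 CPM (SD, n = 2 each), or -0.68 ± 0.50 as log2 fold change and standard error (edgeR adjusted p = 0.486), which was 0.05 without siCTRL replicate 1. Exons of HOXA11 and HOXA11-AS share 717 bases, and the 2 rows were close per kb, with ratios of antisense to coding of 0.875, 1.84, 1.53 and 1.11 in siCTRL 1, siCTRL 2, siEZH2 1 and siEZH2 2.

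In the anterior HOXA rows 1 library of a group often stood alone. HOXA3, a pharyngeal arch gene, had 5 and 12 counts in siCTRL and 44 and 4 in siEZH2, and its log2 fold change of 1.18 was -1.49 without siEZH2 replicate 1 (edgeR adjusted p = 0.594 with all libraries). HOXA2, a hindbrain and second arch gene with the most counts of the untested HOXA coding rows, had 2 and 8 against 20 and 8. At the posterior end, HOXA13, a limb and urogenital gene, had 10 and 12 against 23 and 0, a log2 fold change of -0.28 (edgeR adjusted p = 0.929). HOXA4, HOXA5 and HOXA6 had at most 12 counts in any library, and the readthrough row was at 0 in all 4.

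HOXB13 (chr17:48724763-48729178, minus strand), the prostate luminal factor, had 153 and 139 counts in siCTRL and 78 and 143 in siEZH2. The siCTRL libraries and siEZH2 replicate 2 were within 14 counts of each other, and siEZH2 replicate 1 stood below them. Its level was 26.8 ± 7.10 and 14.4 ± 4.63 CPM (SD, n = 2 each), or -0.89 ± 0.45 as log2 fold change and standard error (edgeR adjusted p = 0.323). In all 12 alternatives it stayed negative, from -1.22 without siEZH2 replicate 2 to -0.13 under scaling on well-covered rows, and it was -0.54 without siEZH2 replicate 1. The other luminal markers were lowest in the other siEZH2 library, replicate 2, as their summed levels above show, and their part in the value of HOXB13 was not tested. HOXB13 was the coding HOX row with the most counts over all libraries, ranked 3794 of 59385 by mean count. No exon on the other strand overlaps it in the annotation used. Since the strand setting of the counting is not given, the strand from which its reads came still cannot be told.

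HOXB-AS3, which runs from HOXB3 to HOXB6 (chr17:48549630-48606414, plus strand), had 141 and 106 counts in siCTRL and 59 and 172 in siEZH2, so the siEZH2 libraries held both the lowest and the highest value. The fit gave -0.62 ± 0.50 as log2 fold change and standard error (edgeR adjusted p = 0.522), which was -0.04 without siEZH2 replicate 1 and -1.39 without siEZH2 replicate 2. The coding rows it overlaps were lower per kb in all 4 libraries. HOXB6 had 1 and 9 counts against 0 and 4, and HOXB5 had a single count in siCTRL replicate 2 and 0 elsewhere. HOXB3 had 36 and 71 against 58 and 30, a log2 fold change of -0.64 (edgeR adjusted p = 0.585).

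The other tested HOXB rows had few counts. HOXB9, a thoracic and mammary gene, had 24 and 32 counts in siCTRL and 24 and 41 in siEZH2, a log2 fold change of -0.23. HOXB7 had 2 and 13 against 9 and 19, a log2 fold change of 0.54. HOXB1, the hindbrain gene at the anterior end, had 0 and 6 against 20 and 10, a log2 fold change of 2.00 that was 1.10 without siCTRL replicate 1, the library at 0, and 6.77 without siCTRL replicate 2. Only for HOXB1 did the groups stand apart among these 3 rows, and its edgeR adjusted p was 0.47, against 0.843 for HOXB7 and 0.885 for HOXB9. Over all tested rows, levels in CPM stood apart with siEZH2 higher in 31.4%. HOXB1 was at 0, 0.774, 1.75 and 0.646 times the olfactory receptor background in siCTRL 1, siCTRL 2, siEZH2 1 and siEZH2 2. On that measure siEZH2 replicate 2 lay below siCTRL replicate 2. HOXB-AS1 had 12 and 15 against 17 and 30, and HOXB-AS4 had 12 and 2 against 14 and 24, with log2 fold changes of 0.34 and 0.85 (edgeR adjusted p 0.869 and 0.724). Untested, HOXB2 had 5 and 7 against 20 and 0 and HOXB-AS2 had 0 and 0 against 0 and 6. HOXB4 and HOXB8 had at most 8 counts in a library.

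In the HOXC cluster the noncoding row HOXC13-AS led (chr12:53935328-53939643, minus strand), with 162 and 151 counts in siCTRL and 216 and 254 in siEZH2. Raw counts were higher in both siEZH2 libraries, whereas after scaling the groups overlapped, at 28.7 ± 7.09 and 31.1 ± 0.389 CPM (SD, n = 2 each). The fit gave 0.12 ± 0.41 as log2 fold change and standard error (edgeR adjusted p = 0.9), and -0.02 with RLE size factors or DESeq2. Within the HOX counts its share was 3.40% and 3.34% in siCTRL and 5.00% and 5.46% in siEZH2, a measure that does not depend on scaling (exact 95% intervals 2.91% to 3.96%, 2.83% to 3.90%, 4.37% to 5.69% and 4.82% to 6.15%). The share was higher in both siEZH2 libraries, with no interval of one group overlapping the other. Such intervals cover counting error only and leave out variation between libraries, so they do not test a difference between groups. The share also depends on HOXA10-AS, whose share ran from 53.0% to 64.2%. HOXC13, the hair and nail gene that it overlaps by 172 bases, had 55 and 80 counts against 40 and 111, with -0.30 as log2 fold change (edgeR adjusted p = 0.791).

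HOXC6 (chr12:53990624-54030823, plus strand), a gene often studied in prostate tumours, had 38 and 66 counts in siCTRL and 12 and 22 in siEZH2. Both siEZH2 libraries lay below both siCTRL libraries, at 9.13 ± 1.73 and 2.22 ± 0.712 CPM (SD, n = 2 each). As log2 fold change and standard error the fit gave -2.03 ± 0.68 and did not pass (edgeR adjusted p = 0.2, the lowest among the members). Across the 11 alternatives that tested it the value lay between -2.37 and -1.35. HOXC6 was at 8.44, 6.12, 0.754 and 1.02 times the olfactory receptor background in siCTRL 1, siCTRL 2, siEZH2 1 and siEZH2 2. Its siEZH2 counts were thus near background. Exons of HOXC6 overlap those of HOXC4 by 484 bases and HOXC9 by 73 on the same strand. Neither row had lower counts in both siEZH2 libraries: HOXC9 had 14 and 34 against 38 and 33, and HOXC4 had 3 and 10 against 8 and 31. The untested HOXC5 had 2 and 0 against 2 and 14.

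Noncoding rows in the middle of the HOXC cluster were higher, lower or without order. HOXC-AS3, which touches HOXC10 by 63 bases, had 34 and 35 counts in siCTRL and 75 and 62 in siEZH2. Its groups stood apart, at 6.29 ± 1.12 and 9.19 ± 2.16 CPM (SD, n = 2 each), with a log2 fold change of 0.55 and a standard error of 0.57 (edgeR adjusted p = 0.627). HOXC-AS1 had 14 and 12 against 0 and 13, siEZH2 replicate 1 alone being at 0, and -1.53 as log2 fold change (edgeR adjusted p = 0.567), which was -0.50 without that library and -6.84 without siEZH2 replicate 2. HOTAIR, the noncoding row between HOXC11 and HOXC12, was not tested and had 4 and 27 against 5 and 9, so siCTRL replicate 2 stood alone. HOXC-AS2 had 10 and 7 against 18 and 4.

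Of the remaining HOXC coding rows, HOXC10, a posterior limb and motor neuron gene, had 3 and 8 counts in siCTRL and 13 and 30 in siEZH2, with groups that stood apart and a log2 fold change of 1.53 (edgeR adjusted p = 0.489). Its counts per kb were 0.972, 1.08, 1.19 and 2.03 times the olfactory receptor background in siCTRL 1, siCTRL 2, siEZH2 1 and siEZH2 2. HOXC11, a neighbour of the same posterior group of genes, had 8 and 12 against 12 and 34, a log2 fold change of 0.73 that was -0.01 without siEZH2 replicate 2 (edgeR adjusted p = 0.723 with all libraries). HOXC9 had a log2 fold change of 0.19 (edgeR adjusted p = 0.91). The untested HOXC12 had 9 and 10 against 0 and 55, which placed the siEZH2 libraries at both extremes. HOXC8 showed the reverse order of those libraries, with 3 and 8 against 33 and 6.

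The HOXD cluster had the fewest counts. HOXD13, a limb and urogenital gene (chr2:176092891-176095938, plus strand), had 42 and 44 counts in siCTRL and 34 and 51 in siEZH2. The siEZH2 libraries enclosed both siCTRL values before scaling, and levels were 7.82 ± 1.30 and 5.58 ± 1.03 CPM (SD, n = 2 each), or -0.48 ± 0.60 as log2 fold change and standard error (edgeR adjusted p = 0.692). HOXD12, a limb gene, had 0 and 9 against 12 and 28, or 1.79 ± 1.33 as log2 fold change and standard error (edgeR adjusted p = 0.489). Its value was 0.87 without siCTRL replicate 1, the library at 0, and 7.12 without siCTRL replicate 2. HOXD12 was at 0, 1.12, 1.01 and 1.74 times the olfactory receptor background in siCTRL 1, siCTRL 2, siEZH2 1 and siEZH2 2. Untested, HOXD3 had 1 and 7 counts against 13 and 7, HOXD-AS2 had 0 and 6 against 17 and 8, and HOXD9 had 0 and 0 against 6 and 3. HOXD1, HOXD4, HOXD8, HOXD10 and HOXD11 had at most 14 counts in any library.

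**Figure D2:**
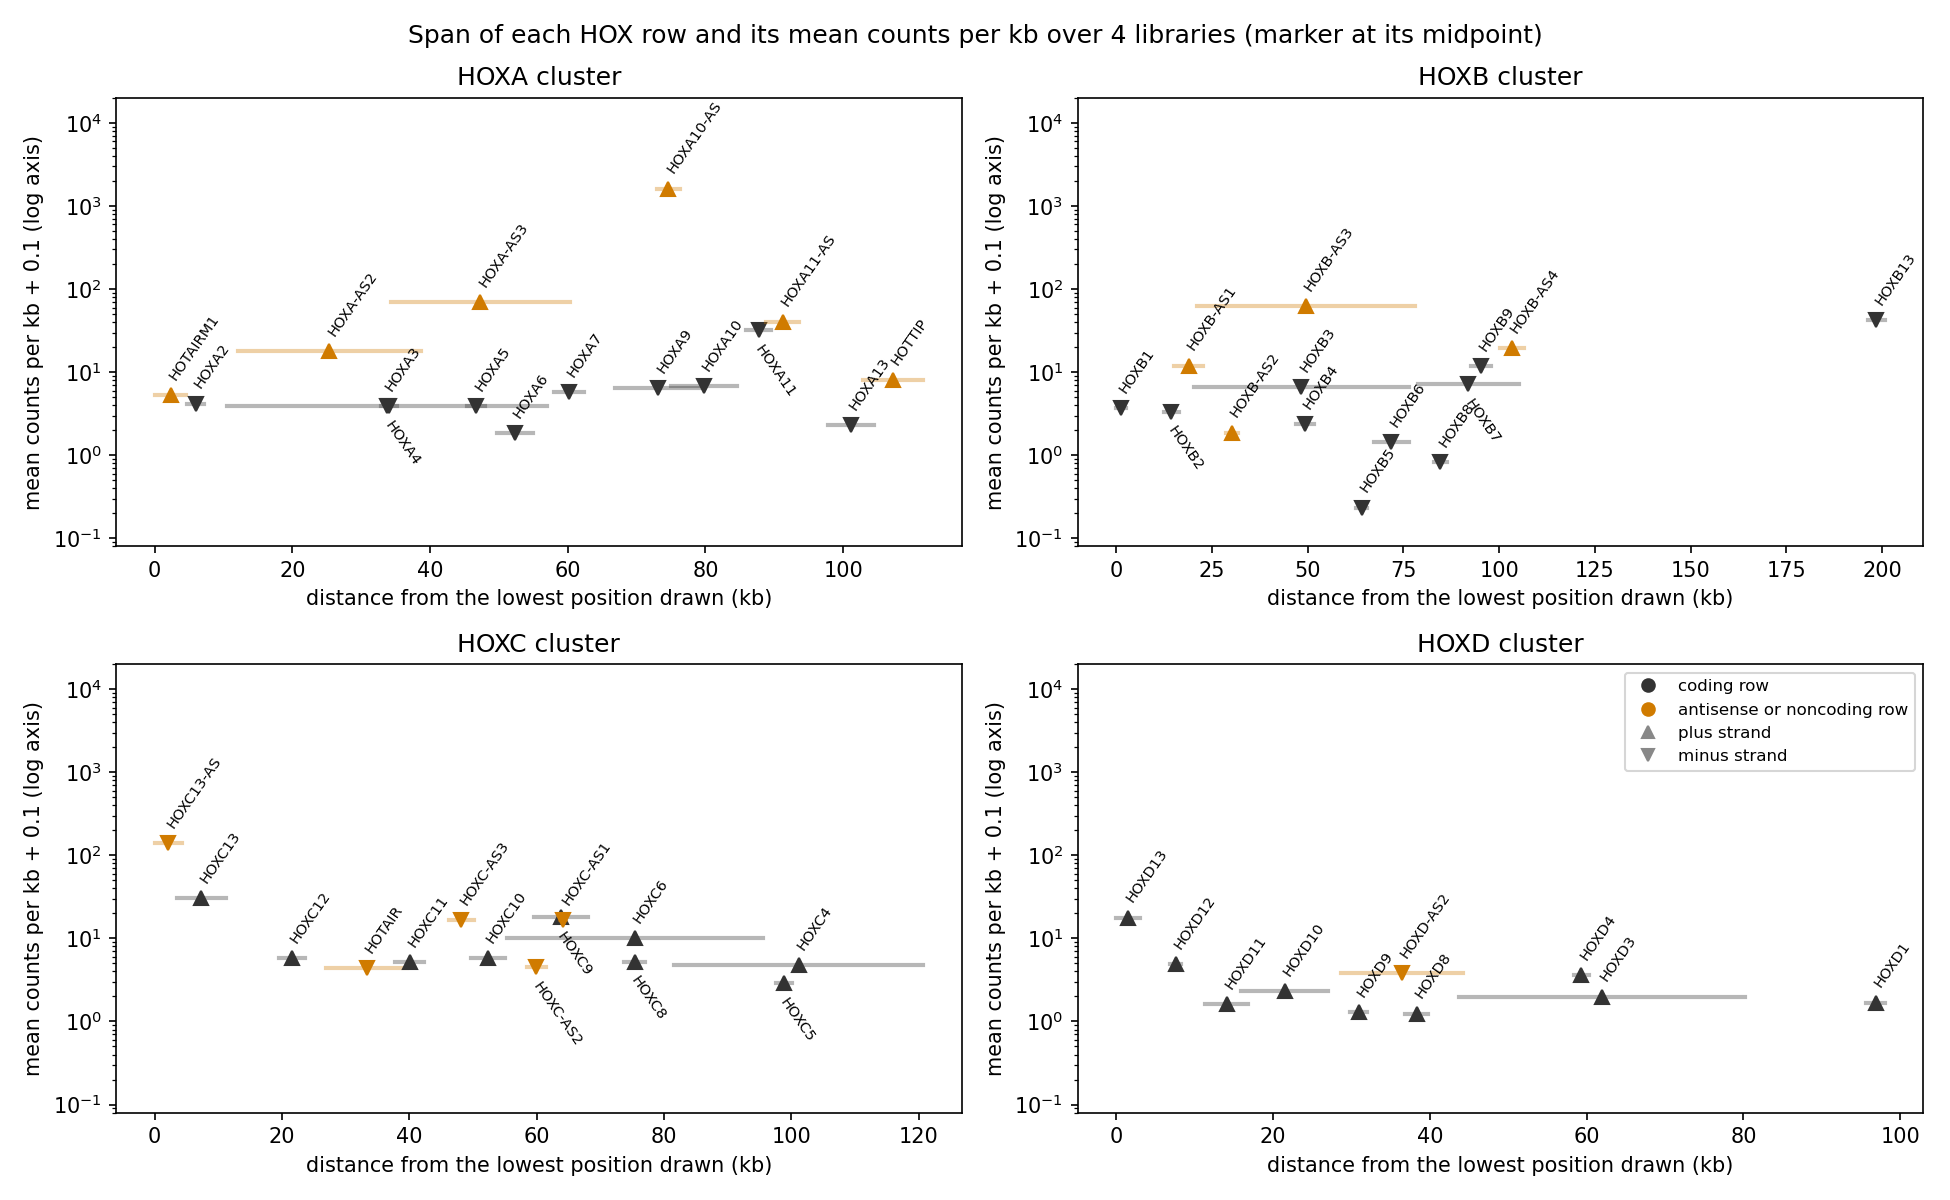
Map of each cluster, with the distance from the lowest position drawn in kb on the horizontal axis and the mean counts per kb over 4 libraries, plus 0.1, on a log vertical axis. Bars span each row, triangles mark midpoints and strand, black is coding and orange is antisense or noncoding, and HOXA10-AS stands far above every other row, while HOXB13 sits apart from the rest of the HOXB cluster.

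Summed counts per kb were higher for the noncoding than for the coding rows. Summed over 39 coding rows they were 5.87, 7.41, 6.98 and 8.63 per kb in siCTRL 1, siCTRL 2, siEZH2 1 and siEZH2 2. Over the 16 antisense or noncoding rows they were 105, 94.6, 90.6 and 94.7 per kb, and without HOXA10-AS they were still 28.9, 29.1, 26.8 and 34.0. As sums, noncoding rows thus held more counts per kb than coding rows in every library, with or without HOXA10-AS. Single rows of the classes overlapped. HOTAIR held 1.54, 10.4, 1.92 and 3.46 counts per kb, below the coding row HOXB13 at 50.35, 45.7, 25.7 and 47.05. The excess of the coding rows over the olfactory receptor background was 4.51, 2.38, 1.52 and 1.39 times in the same order, lower in both siEZH2 libraries, in which the background itself was higher.

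The coding rows that stood above background were mostly posterior. Paralogue groups 9 to 13 held 10.7, 11.1, 9.32 and 15.1 counts per kb, and groups 1 to 8 held 2.20, 4.58, 5.20 and 3.70. Set against the olfactory receptor rows, groups 1 to 8 were at 1.69, 1.47, 1.13 and 0.594 times background, so that siEZH2 replicate 2 lay below it. HOXA11, HOXB7, HOXB9, HOXB13, HOXC9, HOXC13 and HOXD13 were the 7 of 39 coding rows (17.9%) above the pooled background in all 4 libraries, and 6 of them belong to groups 9 to 13. Among noncoding rows 9 of 16 (56.2%) did so, against 20 of the 414 olfactory receptor rows (4.83%).

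Pair by pair the same order mostly held. There were 21 pairs of a noncoding and a coding HOX row with exons that overlap on opposite strands, made of 12 noncoding and 18 coding rows. In 19 of them the noncoding row had more counts per kb over the 4 libraries pooled, and in 16 it did so in every library. The exceptions in the pooled counts were HOXC-AS2 against HOXC6, at 0.441, and against HOXC9, at 0.246. HOXC13-AS held 4.93, 3.16, 9.04 and 3.83 times the counts per kb of HOXC13. Pairs share members, so they are not independent, and since the strand counted is not given, which RNA of a pair gave these reads cannot be told apart.

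**Figure D3:**
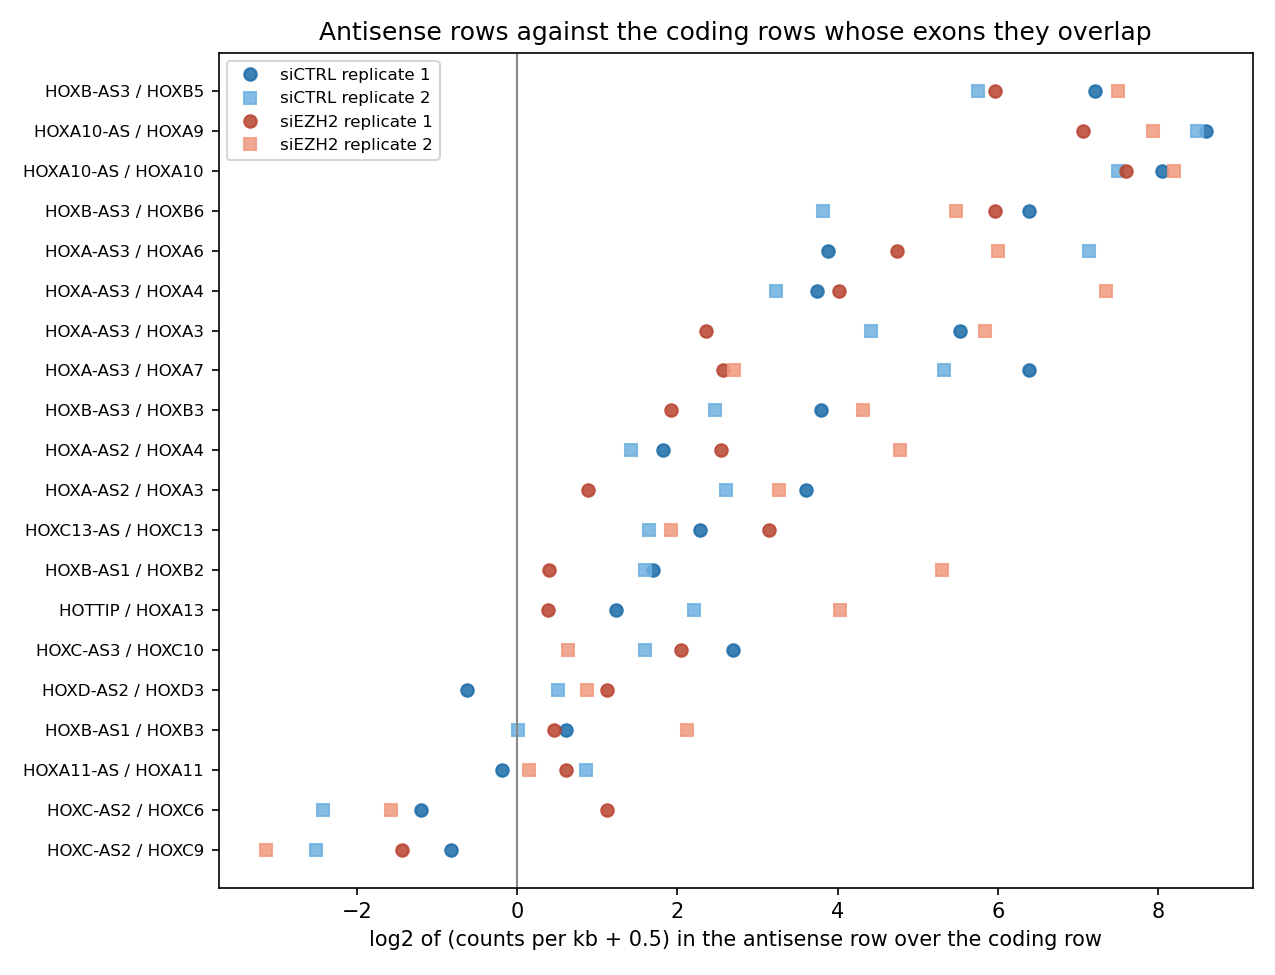
Log2 of the ratio of counts per kb + 0.5 in the noncoding row to that in the coding row it overlaps, for 20 of the 21 pairs (vertical axis) and 4 libraries (blue siCTRL, red siEZH2; circle replicate 1, square replicate 2). Most points lie right of 0, where the noncoding row is denser, and both HOXC-AS2 pairs lie mostly left of it.

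Across the 29 tested members 13 log2 fold changes were positive and 16 negative, with a median of -0.28, against 56.7% positive, 43.3% negative and a median of 0.22 over all tested rows. The 18 coding rows divided evenly, 9 positive and 9 negative, with a median of -0.02, which was 0.64 under scaling on well-covered rows. The 11 noncoding rows had 4 positive and 7 negative values and a median of -0.58, which was 0.18 under that scaling. By cluster, the positive and negative values numbered 3 and 8 in HOXA, 4 and 4 in HOXB, 5 and 3 in HOXC, and 1 and 1 in HOXD. Levels in CPM did not overlap between groups in 5 members with higher siEZH2 values and in 10 with lower ones, against 31.4% and 22.9% of all tested rows. Scaling on well-covered rows moved the median of all tested rows from 0.22 to 0.88, a shift of 0.66, and under it 22 members were positive and 7 negative with a median of 0.43, which reversed the direction of the members' median.

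Well-counted members mostly had negative values and the members with fewest counts mostly positive ones, the order also seen over all rows, but members between 20 and 50 counts did not follow it. Members with a mean of 50 counts or more had 2 positive and 8 negative values with a median of -0.60, where all tested rows of that class had 31.8% positive values and a median of -0.46. Members with a mean under 50 counts had 11 positive and 8 negative values with a median of 0.34, where all such rows had 70.0% positive values and a median of 0.57. Under 20 counts, 10 of 12 members were positive, against 70.6% of all rows. Between 20 and 50 counts, 1 of 7 was positive, against 69.3% of all rows. In that last class HOXC6, HOXA10, HOTTIP, HOXB3, HOXD13 and HOXB9 were negative and HOXC9 was positive. A row can pass the low-count filter through the group in which it is higher, so these counts describe the tested members and not all 56.

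The differences between groups were about as large as those within them. For the 10 members with a mean of 50 counts or more, the median absolute log2 difference was 0.51 between the siCTRL libraries, 0.42 between the siEZH2 libraries and 0.56 between group means, on the log2 scale of CPM + 0.5. For the other 19 tested members these were 0.52, 0.79 and 0.67. In summed levels, all HOX rows stood at 991 and 710 CPM in siCTRL and 617 and 576 in siEZH2. The coding rows stood at 126 and 120 against 103 and 110 CPM, and under scaling on well-covered rows their log2 ratio turned from -0.21 to 0.49.

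**Figure D4:**
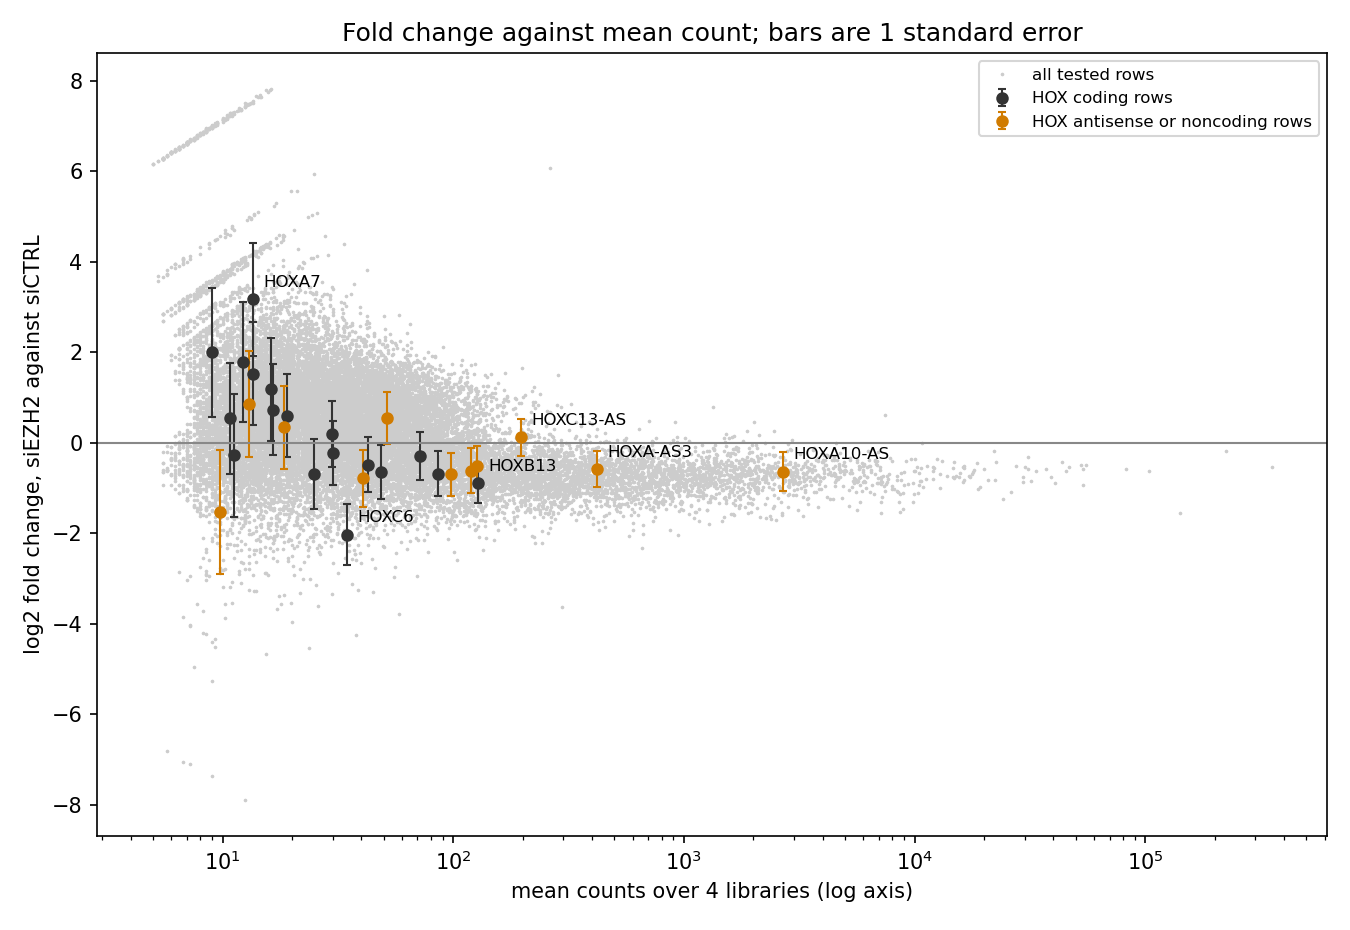
Log2 fold change of siEZH2 against siCTRL on the vertical axis and mean counts over 4 libraries on a log horizontal axis, for all 24431 tested rows (grey) and the 29 tested HOX members (black coding, orange noncoding, bars 1 standard error). HOX members lie within the grey cloud, with HOXA7 at 3.17 and HOXC6 at -2.03 the highest and lowest among them, and scaling on well-covered rows shifts the median of the cloud up by 0.66.

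Genes that work with or on the HOX clusters were read from lists. The homeodomain cofactors of the PBX, MEIS and PKNOX families, which bind DNA beside HOX proteins, had 8 of 9 rows tested, and edgeR called 0. All 8 values were positive, with a median of 0.84 against 0.22 over all tested rows, and without siEZH2 replicate 2 the median was 0.55 with 7 positive. Most of the 8 had a mean under 50 counts, a class with 70.0% positive values and a median of 0.57 over all tested rows. The summed CPM of the olfactory receptor rows had a log2 ratio of 0.91. A rise particular to the cofactors was not tested. Polycomb and Trithorax regulators had 20 of 20 tested, 9 positive and 11 negative, with a median of -0.17 that was 0.59 under scaling on well-covered rows and 0.04 without siEZH2 replicate 1. Among them KDM6A, a demethylase that removes the mark placed by EZH2, had 82 and 142 counts against 151 and 219, with 0.30 as log2 fold change (edgeR adjusted p = 0.731). The ParaHox genes, an ancient sister group, had 1 of 6 tested, CDX2 at 1.92, and GSX1 had the most counts, at 2 and 0 against 8 and 33. The 6 microRNA rows within the clusters were not tested, and the highest, MIR196A1, had 0 and 0 against 5 and 3 counts. Neither the regulator list nor the ParaHox list had a row called by edgeR without the replicate block. DESeq2 and the edgeR fit with the replicate number as a block each called 1 of the 20 regulators, in the lower direction, where they called 17.1% and 4.42% of all rows lower.

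Genes beside the clusters had 18 rows tested of 21 found, 13 positive and 5 negative, with a median of 0.30 and 0 called. That median was 0.08 without siEZH2 replicate 1 and 0.96 under scaling on well-covered rows. PRAC2, a prostate and colon gene next to HOXB13, had the most counts, at 319 and 308 in siCTRL and 178 and 314 in siEZH2. The pattern of libraries was that of HOXB13, with siEZH2 replicate 1 alone low, and the fit gave -0.83 ± 0.41 as log2 fold change and standard error (edgeR adjusted p = 0.319).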

How the data were processed

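The deposited table gives raw counts by gene symbol for each library, as whole numbers without normalisation or pooling, and the length of each row. Per the submitters' processing notes, STAR 2.7.10b, featureCounts 2.0.3, edgeR and limma were used with GRCh38 (hg38), with no role or order given. Neither the annotation release nor the counting's strand setting is given in the sources used here. Per the labels' protocols, libraries came from total RNA with a stranded kit. Each column was matched to its library by title.

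Rows were placed on GENCODE release 29 by symbol (55 of 56 members, of which 19 had the same length), and promoter and microRNA sequences are those of RefSeq (GRCh38.p14). The test was edgeR's quasi-likelihood test (version 4.0.16, R 4.3.3) without covariates, after filterByExpr (24431 rows passed and 34954 did not) and TMM scaling (factors 0.704, 0.945, 1.12 and 1.34). Benjamini-Hochberg adjustment covered every row that passed, and a call needed an adjusted p under 0.05. The spread between libraries of a group, as edgeR's coefficient of variation, was 46.5% (common dispersion 0.216), and it may be technical. Library totals of 6162123 to 6867542 counts set the precision. The procedure was tested on simulated counts.

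All tested members were named, with the untested coding and noncoding row with most counts in each cluster, and from each list the row with most counts. Some of these rows are counted in the totals but not reported by name here. MIR3185 was named after its values were seen. The members, lists and alternatives were chosen with earlier results of these data known. Alternatives were RLE and upper-quartile factors, TMM on well-covered rows alone (200 counts or more in 2 libraries), DESeq2 1.42.0, limma-voom 3.58.1, no filter, at least 50 counts in 2 libraries, a block for the replicate number, and leaving out libraries in turn, which assumes that a lone library varies as the other group does. Same-numbered libraries shared only a number in the titles. Figures were made with Python 3.11.15 and matplotlib 3.10.9.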

Additional observations from a re-analysis of the deposited data

How the results depend on the processing

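No HOX member was called in any of the 12 alternatives, and 13 of the 29 tested members kept the sign of their log2 fold change in all alternatives that tested them, while 16 changed it in at least 1. The lowest adjusted p was 0.065, for HOXC6 with the replicate number as a block, and over its alternatives it ran from 0.065 to 0.644. The block called 1327 rows in all, against 0 without it, and did not move the members' counts of positive and negative values. Deviations of same-numbered libraries correlated at 0.05, over 2 pairs, so the numbers are not taken as pairing. Rows called over the whole table numbered 13 with RLE factors, 80 with no filter, 868 with DESeq2, 345 with limma-voom, and 0 to 221 when 1 library was left out. Positive and negative members numbered 22 and 7 with scaling on well-covered rows, 29 and 26 with no filter, and 3 and 8 with at least 50 counts. Their median was 0.43 with that scaling and 0.12 with no filter. The cause of these shifts was not tested, beyond the smaller or larger number of rows that each filter leaves.

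The log2 ratio of summed CPM moved most with scaling on well-covered rows, to 0.49 for coding and 0.16 for antisense rows. By cluster it was then 0.51 and 0.09 for HOXA coding and antisense rows, 0.17 and 0.44 for HOXB, 0.71 and 0.79 for HOXC, and 0.90 for HOXD coding rows. RLE factors and DESeq2 gave -0.33 for coding and -0.66 for HOXB coding rows, and no filter gave -0.29 and -0.61. At least 50 counts gave 0.19 for coding, -0.16 for antisense, -0.22 for HOXA antisense, -0.14 for HOXB coding, 0.48 for HOXC antisense and 0.59 for HOXD coding rows. Leaving out 1 library gave -0.24 to -0.10 for coding, -0.82 to -0.27 for antisense, -0.65 to 0.23 for HOXA coding, -0.89 to -0.33 for HOXA antisense, -0.57 to -0.45 for HOXB coding, -1.01 to 0.16 for HOXB antisense, -0.47 to 0.43 for HOXC coding, -0.10 to 0.26 for HOXC antisense and -0.07 to 0.50 for HOXD coding rows.

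Of 23 reversals of single members, 9 came with scaling on well-covered rows: HOXD13 to 0.25, HOXA-AS3 to 0.17, HOXA10-AS to 0.09, HOXA11 to 0.11, HOXA11-AS to 0.18, HOXA13 to 0.30, HOXC13 to 0.43, HOXB-AS3 to 0.19 and HOXB9 to 0.48. HOXC13-AS was -0.02 with RLE factors and DESeq2, and HOXC13 was 0.11 with at least 50 counts. When 1 library was left out, HOXA3 lay between -1.49 and 2.10, HOXA9 lay between -0.06 and 1.13, HOXA11 lay between -1.17 and 0.05, HOXA13 lay between -6.66 and 0.77, HOXC13-AS lay between -0.12 and 0.39, HOXC13 lay between -1.03 and 0.25, HOXC11 lay between -0.01 and 1.29, HOXC9 lay between -0.17 and 0.70, HOXB7 lay between -0.16 and 2.08, HOXB9 lay between -0.51 and 0.07 and HOXB-AS4 lay between -0.01 and 2.92. The sign turned without siEZH2 replicate 1 for HOXA3, HOXA9, HOXC13 and HOXB9, without siCTRL replicate 1 for HOXA11, HOXC9 and HOXB7, without siEZH2 replicate 2 for HOXA13 and HOXC11, without siCTRL replicate 2 for HOXC13-AS and HOXB-AS4. Members that kept their sign without any 1 library lay between -1.39 and -0.04 for HOXB-AS3, 0.87 and 7.12 for HOXD12, 1.10 and 6.77 for HOXB1, -6.84 and -0.50 for HOXC-AS1, 0.98 and 2.13 for HOXC10, -1.28 and -0.14 for HOXB3, -1.06 and -0.33 for HOXA-AS2, -0.83 and -0.29 for HOXA-AS3, -0.92 and -0.31 for HOXA10-AS, -1.17 and -0.26 for HOXA10, -1.14 and -0.28 for HOTTIP, 0.04 and 0.67 for HOXB-AS1, 0.35 and 0.82 for HOXC-AS3, -0.64 and -0.25 for HOXD13, and -0.66 and -0.29 for HOXA11-AS. Where the libraries left in a group are all at 0, the fitted value depends on the prior count. Depth limits the untested members most, since none of those 27 held more than 74 counts over the 4 libraries together.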

Other observations

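MIR3185, a microRNA row of 68 bases next to HOXB13 that lies wholly within the span of PRAC2 on the other strand, had 285 and 242 counts in siCTRL and 159 and 73 in siEZH2. Both siEZH2 libraries lay below both siCTRL libraries, at 48.7 ± 15.1 and 15.9 ± 9.68 CPM (SD, n = 2 each). This came to -1.62 ± 0.48 as log2 fold change and standard error and did not pass (edgeR adjusted p = 0.191). DESeq2, limma-voom, the fit with the replicate block and the fit without siEZH2 replicate 1 called it, at -1.75, -1.73, -1.72 and -2.36, and over all 12 alternatives the adjusted p ran from 0.00284 to 0.72. Per kb the row held 4191, 3559, 2338 and 1074 counts in siCTRL 1, siCTRL 2, siEZH2 1 and siEZH2 2, in each library more than HOXA10-AS except in siEZH2 replicate 2. PRAC2 had 498, 481, 278 and 491 counts per kb in the same order. These rows differ in length, at 68 bases for MIR3185, 640 for PRAC2 and 1654 for HOXA10-AS. Counts per kb of rows so unlike in length do not rank the RNAs. The row was singled out after its values were seen, and reads from PRAC2 and from MIR3185 cannot be told apart here.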
